A study of Mus musculus with 2 samples.

Results

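The lysosomal enzymes and autophagy genes described here are 44 mouse genes chosen by name from the textbook components of both systems, of 18194 genes that the array annotation names. The array carried at least 1 probe set, a group of short oligonucleotides matching a transcript, that was annotated to a single gene for 43 of the 44, the exception being Cd63. Of these 43 genes, 36 had a signal intensity above 500 in at least 1 of the 2 pools and are called measured here. The remaining 7, Glb1, Gla, Manba, Neu1, Tfeb, Tfe3 and Atg7, stayed at or below 500 in both pools. Total liver RNA of 3 FLS mice was pooled and hybridized to 1 Affymetrix Mouse Genome 430 2.0 array, and that of 3 DS mice to another. FLS (fatty liver Shionogi) is an inbred strain that develops steatohepatitis spontaneously and served as the model of NASH, while DS (dd Shionogi), an inbred strain from a different line of the ddN colony, served as the model of simple steatosis. All mice were 19 weeks old, ate a standard pellet diet without any drug or gene targeting, and had their livers flushed with saline before RNA extraction. The alleles that separate the strains, and the sex of the mice, were not stated in the labels. Strain and disease state cannot be told apart. With 1 array per strain there is no replicate, no p-value and no measure of the spread between mice.

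Lysosomes are acidic compartments in which proteases, glycosidases and lipases break down material delivered by endocytosis or by autophagy. A proton pump in their membrane keeps them acidic, and heavily glycosylated membrane proteins line them. Autophagy encloses cytoplasm in a double membrane, to which small ubiquitin-like proteins of the LC3 and GABARAP families are attached, and the closed vesicle then fuses with a lysosome. The transcription factors TFEB and TFE3 bind E-box sequences in the promoters of many of these genes. In the liver, autophagy also turns over lipid droplets and mitochondria, and the acid lipase LIPA releases fatty acids from lipids taken into lysosomes.

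The signals describe liver RNA on both arrays. On the brightest probe set of each gene, all 10 measured hepatocyte markers had FLS/DS ratios between 1.01 and 1.12. The highest, Hnf4a, ran from 0.890 to 1.12 over its 3 measured probe sets. Albumin (Alb) gave 32018 for the FLS and 30942 for the DS pool. The median ratio over all 5076 measured genes was 1.03, and 56.4% of them had a ratio above 1. The method of scaling between the arrays was not stated. Actb, a common reference gene, had a ratio of 0.867, so expressing every gene relative to Actb would raise all log2 ratios by 0.21. As a yardstick for precision, the log2 ratios of different measured probe sets of the same gene had a pooled SD of 0.22 over 1424 genes, a 1.17-fold step. This SD comes from the same 2 arrays and says nothing about variation between mice. Of all 5076 measured genes, 2909 had ratios within this spread and 2167 outside it, and of the 36 measured members 18 lay within and 18 outside. A ratio outside it is therefore common. In RNA of whole tissue, more cells of a type and more RNA per cell cannot be told apart.

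Most of the lysosomal and autophagy genes differed little between FLS and DS livers, and the differences that stood out lay in the cathepsins and in the LC3 family. The median log2 ratio of the 36 measured members was 0.15, a ratio of 1.11, and 25 of them were above 1, or 21 to 31 under other scalings. On the brightest probe sets, 1 of the 36 was at least 2-fold higher in FLS livers (Ctse, 2.78% of members, against 2.29% of all measured genes), although its other probe set was more than 2-fold lower, and 1 was at least 2-fold lower (Map1lc3a, also 2.78%, against 1.77%). These shares, each of 1 gene, lie near the background, and after division by Actb they became 2 higher and 0 lower. At a limit of 1.5-fold, 4 members were higher (Ctse, Ctsc, Ctsa and Gabarapl1, 11.1% against 6.11% of all measured genes) and 1 was lower (2.78% against 4.49%). The number of members 1.5-fold higher was 6 after division by Actb, beside 710 of all 5076 measured genes, and 1 with the median over probe sets, beside 221. The other 31 had ratios within 1.5-fold of 1. Over all measured genes, 116 reached 2-fold in the FLS direction and 90 in the DS direction, a split that became 171 and 72 after division by Actb. Of the 36 members, 33 exceeded 500 in both pools, while Mcoln1 did so in the FLS pool alone and Gusb and Gaa in the DS pool alone.

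**Figure D1:**
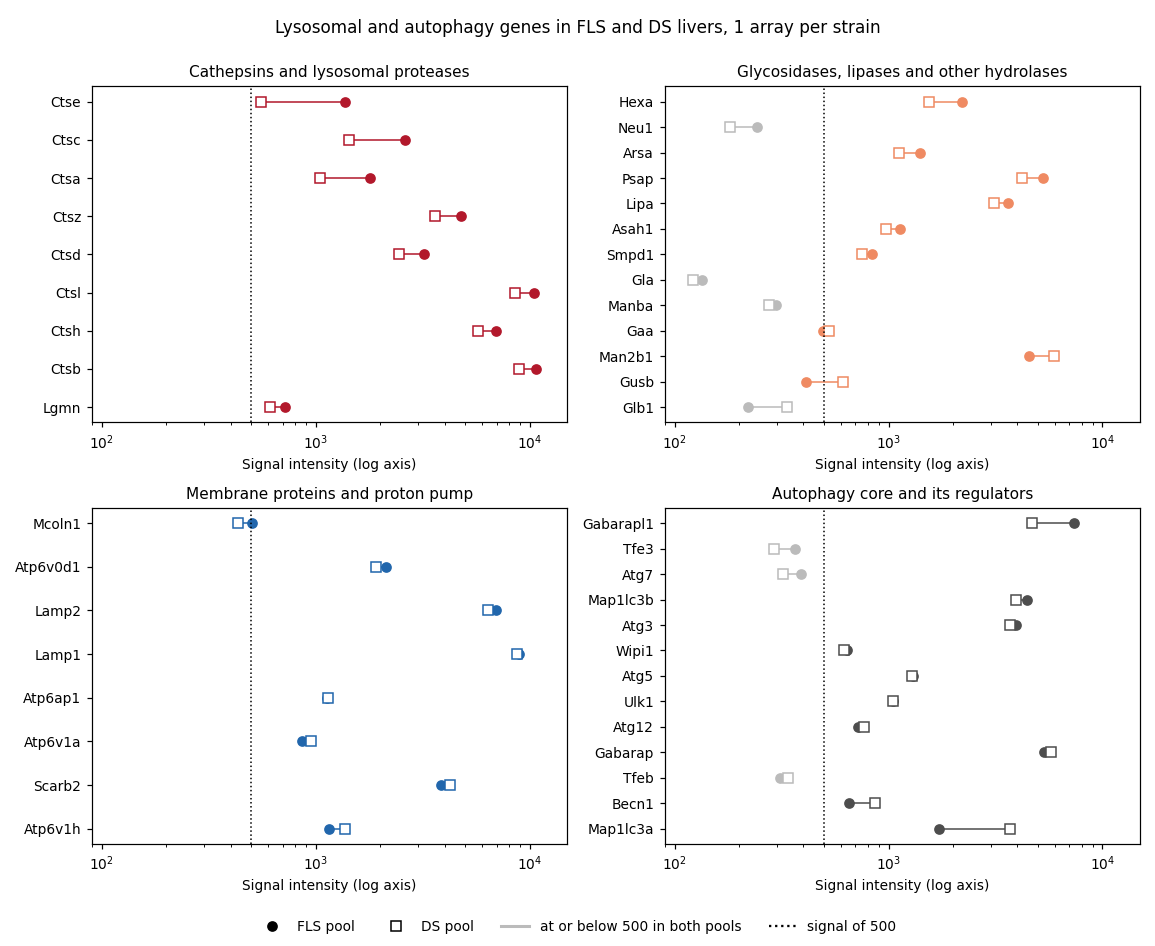
Signal intensity (log axis) of the 43 lysosomal and autophagy genes on the array in the FLS pool (filled circles) and the DS pool (open squares), 1 array each, in 4 groups ordered by FLS/DS ratio, with grey for the 7 genes that were not measured and a dotted line at 500. On its brightest probe set, every cathepsin has its FLS signal to the right of its DS signal, and Map1lc3a has the widest gap to the left, at 1715 against 3706. Signals of different probe sets are not comparable as levels of different genes.

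The 9 cathepsins and related proteases are enzymes that mostly digest proteins inside lysosomes. On their brightest probe sets, all 9 had higher signals in the FLS pool, though a second probe set of Ctse read the opposite way. Their ratios ran from 1.17 to 2.47 with a median of 1.30, against 1.03 over all measured genes. All 9 stayed above 1 under each of 4 other scalings of the arrays, but this count says little. Division by Actb and centring raise every ratio. Quantile normalization and loess shifted a typical gene by only -0.024 and -0.017 in log2, while the lowest cathepsin, Lgmn, stood at 0.23. With the median over the probe sets of each gene, 7 of 9 stayed above 1, while Ctsc came to 0.947 and Ctse to 0.782. Among the cysteine proteases, Ctsc, which activates the serine proteases of immune cells, read 2602 in FLS and 1431 in DS livers. Its ratio of 1.82 ranked 148 among the 5076 measured genes and rests on 1 of its 3 probe sets, since the others had signals of 140 and 71.7 in the FLS pool. Ctsz, a carboxypeptidase, gave 4789 for FLS and 3611 for DS livers, a ratio of 1.33, and its 3 measured probe sets spanned 1.25 to 1.35. Ctsl, a broad endopeptidase, had signals of 10471 in FLS against 8525 in DS livers, a ratio of 1.23.

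Ctsh, an aminopeptidase, read 6939 in FLS and 5721 in DS livers, a ratio of 1.21, with 1.51 on a second probe set. Ctsb, among the most studied liver cathepsins, gave 10735 for FLS and 8956 for DS livers, a ratio of 1.20, and its 3 measured probe sets lay between 1.10 and 1.44. Lgmn, the asparagine-specific protease legumain that processes other cathepsins, had the lowest ratio of the group at 1.17, with signals of 717 and 612. Thus for Ctsb, Ctsh and Ctsz, each measured probe set pointed the same way. The Ctsb probe set at 1.44, however, read 599 in FLS and 416 in DS livers. It counted as measured through its FLS signal alone, so it could only point that way and adds nothing to the agreement. The brightest probe set of each gene differed by more than the 1.17-fold spread between probe sets, Lgmn by the narrowest margin, while the second measured probe set of Ctsb, at 1.10, did not. Of all 5076 measured genes, 2167 also differed by more than this spread. Ctsa, a serine carboxypeptidase that also protects the enzymes GLB1 and NEU1 in a complex, had signals of 1786 in FLS against 1046 in DS livers. Its ratio of 1.71 ranked 181, and its other probe set was dim, at 187 and 190. The aspartic protease Ctsd read 3196 in FLS and 2464 in DS livers, a ratio of 1.30 on its single probe set.

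Ctse, the second aspartic protease of the list and one found mainly in stomach, blood and immune cells rather than in hepatocytes, gave opposite readings on its 2 probe sets. Probe set 1418989_at gave 1371 for the FLS and 555 for the DS pool, a ratio of 2.47 that ranked 65 among all measured genes. Probe set 1427797_s_at gave 297 for the FLS and 1197 for the DS pool, a ratio of 0.248. The former was thus higher in FLS livers and the latter higher in DS livers, each by more than 2-fold, and the ratios differed 9.96-fold. Of 1424 genes with more than 1 measured probe set, Ctse was the only 1 with a probe set at least 2-fold higher and another at least 2-fold lower, and its probe sets lay farther apart than those of any other gene. Over the 4 other scalings, the ratios stayed between 2.40 and 2.85 and between 0.242 and 0.286. The ending _s_at marks probes that can match more than 1 transcript, and the target positions of both probe sets were not used here, so no direction can be given for the gene as a whole.

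Red cells also contain cathepsin E, and some red cell readings were lower in FLS livers, like the second Ctse probe set. Alas2, the heme synthesis enzyme of red cell precursors, gave 847 for the FLS and 5423 for the DS pool, a ratio of 0.156. Among 5 red cell genes with a probe set of their own, the other 4 stayed at or below 500 on it in both pools, with ratios of 1.01 for Hba-a1, 0.965 for Klf1, 0.878 for Slc4a1 and 0.826 for Epb42. The summed signal of the 5 was 1397 in FLS and 6015 in DS livers, nearly all of the gap being that of Alas2. The 4 hemoglobin probe sets above 500, which match several globin genes each, Hba-a1 included in 3 of them, and were looked up after the value of Alas2 was seen, had ratios from 0.159 to 0.189. The part of red cell RNA in the Ctse signals was not tested. Of 7 B cell genes, only Ighm was measured, at 550 in FLS and 708 in DS livers. All 7 had ratios below 1, with summed signals of 1214 and 1506. The others read between 91.9 and 193, near the array medians of 120 and 125. With no signal limit, the median log2 ratio of all 18194 genes also lay on the DS side, at -0.036.

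**Figure D2:**
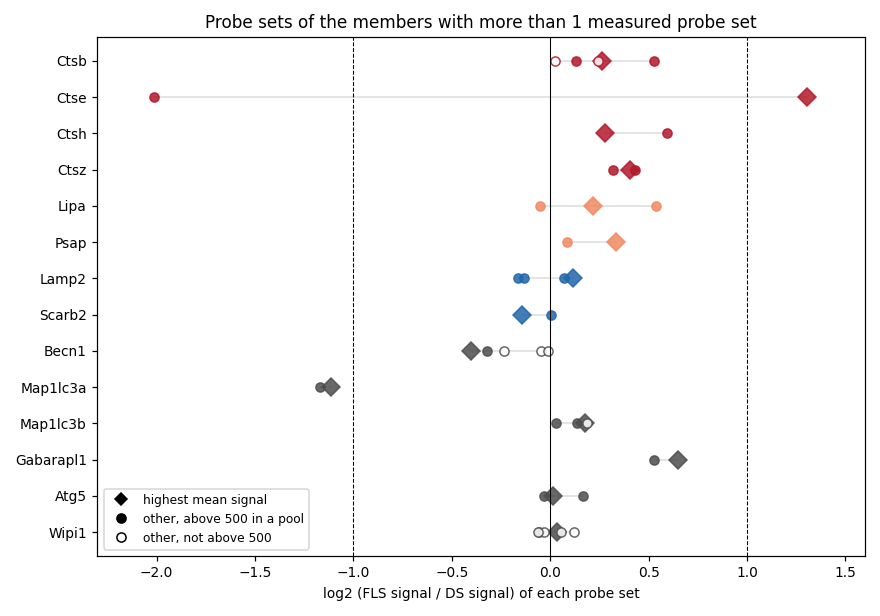
log2 FLS/DS ratio of each probe set of the 14 members with more than 1 measured probe set, with diamonds for the probe set of highest mean signal, filled circles for other measured probe sets and open circles for those not above 500. Dashed lines mark 2-fold differences. Ctse has its probe sets at ratios of 2.47 and 0.248, while both probe sets of Map1lc3a lie at 0.463 and 0.444 and those of Gabarapl1 at 1.44 and 1.57.

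Among the 14 members with more than 1 measured probe set, all measured probe sets of 8 fell on the same side of 1. The dimmest measured probe sets of Ctsb, Ctse and Atg5 passed the signal limit in a single pool, so they could only point toward that pool. In 5 of the other 6, the probe sets lay on both sides of 1 but within 1.5-fold of it, and the remaining gene was Ctse. Without Ctse, the widest gap between measured probe sets was 1.51-fold, in Lipa.

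The promoters are shown because several of these genes share the E-box that TFEB and TFE3 recognize. RefSeq promoter sequences of 250 bases before to 50 after a start site (GRCm38.p6) were on hand for 36 of the 44 members, with 42 start sites in all. No entry was found for Ctsb, Ctse, Ctsh, Asah1, Atp6v1h, Becn1, Map1lc3a and Atg12. The 6-base E-box CACGTG, which reads the same on both strands, occurred in at least 1 promoter of 15 of the 36 genes, or 41.7%, against 8.09% of 27025 genes with a promoter in the table. Counted by start site the shares were 35.7% and 7.15%. The longer form TCACGTGA, which contains the E-box and is also its own reverse complement, was found in 7 of the 36 genes (19.4% against 1.12%). By group, the E-box was present in 4 of 6 cathepsin genes (Ctsa, Ctsd, Ctsl and Lgmn), 4 of 12 hydrolase genes (Gla, Glb1, Gaa and Arsa), 4 of 8 membrane and pump genes (Lamp1, Mcoln1, Atp6v0d1 and Atp6v1a) and 3 of 10 autophagy genes (Atg3, Atg5 and Atg7). Below are the 250 bases before the start site of 4 members, 5′ to 3′ on the strand of the gene, with each E-box in capitals. Ctsd and Atg3 each carry the motif in 2 places, Lamp1 carries the most copies of it among the members, and Ctsc, which had the highest ratio among the cathepsins other than Ctse, has none in this window.
Ctsd, chr7:142387828-142388077 (minus strand): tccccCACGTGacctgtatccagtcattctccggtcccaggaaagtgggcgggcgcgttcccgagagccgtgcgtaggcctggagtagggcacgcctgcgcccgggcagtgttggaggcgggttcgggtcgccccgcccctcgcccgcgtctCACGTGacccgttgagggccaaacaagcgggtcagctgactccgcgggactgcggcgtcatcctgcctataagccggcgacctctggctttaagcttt
Lamp1, chr8:13158911-13159160 (plus strand): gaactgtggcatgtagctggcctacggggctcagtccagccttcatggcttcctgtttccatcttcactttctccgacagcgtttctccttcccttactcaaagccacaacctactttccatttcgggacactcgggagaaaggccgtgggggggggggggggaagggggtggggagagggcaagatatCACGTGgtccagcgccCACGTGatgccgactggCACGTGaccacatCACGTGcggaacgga
Atg3, chr16:45158579-45158828 (plus strand): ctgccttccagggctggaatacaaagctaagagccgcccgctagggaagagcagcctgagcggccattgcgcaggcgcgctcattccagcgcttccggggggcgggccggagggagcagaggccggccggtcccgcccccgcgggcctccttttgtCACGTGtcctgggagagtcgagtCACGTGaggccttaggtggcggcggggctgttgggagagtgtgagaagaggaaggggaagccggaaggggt
Ctsc, chr7:88277835-88278084 (plus strand): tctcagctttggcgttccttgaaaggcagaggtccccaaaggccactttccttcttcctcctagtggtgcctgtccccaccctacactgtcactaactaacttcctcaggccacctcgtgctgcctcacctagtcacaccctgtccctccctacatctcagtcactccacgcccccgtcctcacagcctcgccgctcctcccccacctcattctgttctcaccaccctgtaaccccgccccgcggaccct

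The E-boxes begin 245 and 98 bases before the start site in Ctsd, 61, 45, 28 and 15 before it in Lamp1, and 94 and 71 before it in Atg3. Single genes went both ways. Lamp1, with 4 copies, had a ratio of 1.02 and Ctsa, with 2, had 1.71. Among genes with none, Ctsc had 1.82 and Gusb 0.669. These genes were picked with their ratios in view. Ctse and Map1lc3a, the members past 2-fold, had no promoter entry, and a role of TFEB or TFE3 was not tested. Over the members, the 12 measured genes with an E-box had a median ratio of 1.14, ranging from 0.906 to 1.71, with 10 of 12 above 1. The 16 measured genes whose promoters lack it had a median of 1.10, ranging from 0.669 to 1.82, with 11 of 16 above 1. The ratios of genes with and without the motif overlapped, and a match is a description of the sequence, not a binding site shown in these livers. TFEB and TFE3 themselves were not measured. Tfeb gave 310 for FLS and 338 for DS livers, and Tfe3 gave 367 and 293.

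The glycosidases, lipases and other hydrolases, which take apart sugars and lipids, had a median ratio of 1.16 over 9 measured genes, with 6 above 1 and 3 below. None of the 9 reached 1.5-fold in either direction. Hexa, the alpha subunit of the hexosaminidase that degrades gangliosides, was the highest, at 2211 in FLS and 1548 in DS livers, a ratio of 1.43. Arsa, which removes sulfate from sulfatide, had signals of 1408 and 1114, a ratio of 1.26. Psap, the precursor of the saposins that present lipids to hydrolases, had 5275 and 4187, a ratio of 1.26, with 1.06 on its second measured probe set. These 3 genes differed by more than the probe-set spread on their brightest probe set, as did 2167 of all 5076 measured genes.

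Lipa, the acid lipase, had signals of 3621 in FLS against 3109 in DS livers, a ratio of 1.16. Its other probe sets gave 1.45, with signals of 1298 and 893, and 0.965, with signals of 1049 and 1088, so its direction is not settled. Asah1, the acid ceramidase, had signals of 1136 and 976, a ratio of 1.16, and Smpd1, the acid sphingomyelinase that yields ceramide, had 838 and 755, a ratio of 1.11. Both steps were no larger than the spread between probe sets.

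On the other side, Gusb, the beta-glucuronidase, read 411 in FLS and 615 in DS livers, a ratio of 0.669, and its dim second probe set had 0.693. Under the other scalings its ratio ran from 0.649, past 1.5-fold, to 0.771. Man2b1, the lysosomal alpha-mannosidase, had signals of 4535 and 5954, a ratio of 0.762, with 1.16 on a probe set below 200. Gaa, the acid glucosidase that degrades glycogen in lysosomes, had 495 and 525, a ratio of 0.944. Among the 4 hydrolases that were not measured, Glb1, the beta-galactosidase, had 221 in FLS and 335 in DS livers, Neu1, the sialidase, 243 and 182, Manba, the beta-mannosidase, 299 and 277, and Gla, the alpha-galactosidase, 134 and 122. Glycosidases were therefore found on both sides of 1. Glb1 and Neu1, the partners of the Ctsa protein, lay on opposite sides.

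Membrane proteins and proton pump subunits were the most even group. The median ratio of the 8 measured genes was 1.01, with 4 above and 4 below 1. Of the 8, 7 lay within the 1.17-fold spread between probe sets, beside 2909 of all 5076 measured genes. Lamp1, the most abundant lysosomal membrane protein together with LAMP2, gave 8925 for FLS and 8750 for DS livers. Lamp2 had 6951 and 6420, a ratio of 1.08, and its 4 probe sets lay between 0.893 and 1.08. Scarb2, the receptor that carries glucocerebrosidase to lysosomes, had 3846 and 4252, a ratio of 0.904, and Mcoln1, a calcium channel of the lysosomal membrane, had 504 and 433, a ratio of 1.16.

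The pump subunits lay close together as well. Atp6v0d1, a subunit of the membrane sector, had signals of 2137 in FLS against 1915 in DS livers, a ratio of 1.12. Atp6ap1, an accessory subunit, had 1128 and 1136, a ratio of 0.993, and Atp6v1a, the catalytic subunit, had 861 and 951, a ratio of 0.906. Atp6v1h, a regulatory subunit, was the lowest of the group at 1160 and 1377, a ratio of 0.843, and the only gene of the 8 outside the probe-set spread. The median log2 ratio of this group ran from -0.047 to 0.21 over the other scalings, so its sign depended on the scaling.

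In the autophagy group, 10 of 13 genes were measured, with a median ratio of 1.01 and 6 genes above 1, and the group held the 2 widest differences among measured members outside the cathepsins. Its median log2 ratio also changed sign with the scaling, from -0.027 to 0.22. Map1lc3a, which encodes LC3A, gave 1715 for the FLS and 3706 for the DS pool, a ratio of 0.463. Its second probe set gave 580 and 1306, a ratio of 0.444, so the readings were 2.16-fold and 2.25-fold lower in FLS livers. Only 78 of the 5076 measured genes had a lower ratio than Map1lc3a. After division by Actb its ratio was 0.533, short of 2-fold.

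No other measured gene of the LC3 and GABARAP families was 1.5-fold lower in FLS livers. Map1lc3b, which encodes the widely used autophagosome marker LC3B, read 4437 in FLS and 3932 in DS livers, a ratio of 1.13, and its 3 measured probe sets lay between 1.02 and 1.13. Gabarapl1 was higher in FLS livers, at 7341 against 4672, a ratio of 1.57 that ranked 266, and at 5830 against 4042 on its second probe set, a ratio of 1.44. Gabarap had 5303 and 5746, a ratio of 0.923, and Gabarapl2, the remaining gene of the family and not a member of the list, had 1431 and 1890, a ratio of 0.757. Ratios within this small family thus ran from 0.463 to 1.57.

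Genes of the earlier steps were mostly even. Ulk1, the kinase that starts autophagy, gave 1052 for FLS and 1048 for DS livers, a ratio of 1.00. Becn1, a subunit of the lipid kinase complex that marks the forming membrane, had 656 and 867, a ratio of 0.756, with 0.800 on its second measured probe set. Wipi1, which binds the lipid that this complex makes, had 636 and 621, a ratio of 1.02.

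The conjugation enzymes that attach LC3 to membranes were near 1. Atg3 had signals of 3936 in FLS against 3679 in DS livers, a ratio of 1.07, Atg5 had 1303 and 1288, a ratio of 1.01, and Atg12, the ubiquitin-like partner of ATG5, had 723 and 771, a ratio of 0.937. Atg7, the activating enzyme, was not measured, at 390 in FLS and 320 in DS livers. All 3 measured members of this step lay within the probe-set spread, as did 2909 of all 5076 measured genes.

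**Figure D3:**
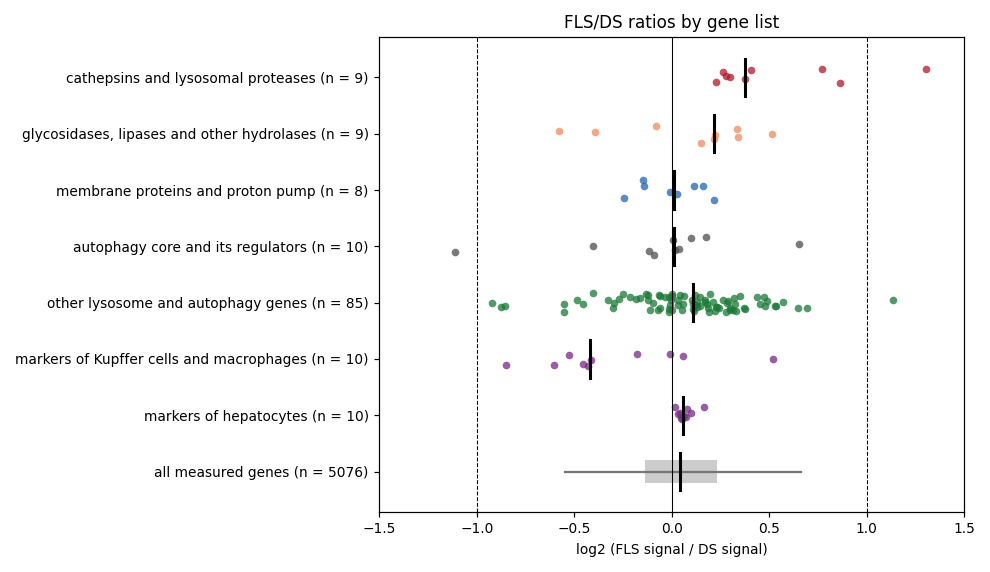
log2 FLS/DS ratio of each measured gene (points) in the 4 groups of lysosomal and autophagy genes, in the other genes of both pathways and in 2 sets of cell type markers, with black bars at the medians. The bottom row gives the range from percentile 5 to 95 (line), the quartiles (box) and the median of all 5076 measured genes, and dashed lines mark 2-fold. All 9 cathepsins, each on its brightest probe set, lie to the right of 0. Of 10 macrophage markers, 8 lie to its left, but Adgre1, Clec4f, Vsig4 and C1qc among them exceeded 500 in the DS pool alone. Without these genes the median log2 ratio of the markers was -0.094.

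Beyond the 44 members, 162 further genes of lysosomes and autophagy were listed in 10 sets, of which 151 were found and 85 measured. Their median ratio was 1.08, with 52 above 1. At a limit of 2-fold, 1 of the 85 was higher in FLS livers and none was lower, beside 2.29% and 1.77% of all measured genes, and at 1.5-fold 3 were higher and 3 lower, beside 6.11% and 4.49%. With no signal limit, 101 of the 151 had ratios above 1, where the median log2 ratio of all 18194 genes was -0.036. The 2-fold gene was Retreg1, a receptor for the autophagy of endoplasmic reticulum, at 3412 for FLS and 1555 for DS livers, a ratio of 2.19, and 1.84 on its second probe set. Of the other autophagy receptors, Stbd1, which binds glycogen, had a ratio of 1.48, Nbr1 of 1.35 and Bnip3, a receptor on mitochondria, of 0.797. The median ratio of the 11 measured receptors was 1.16.

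The other lysosomal proteases and their inhibitors also had mostly higher signals in FLS livers, with a median ratio of 1.23 and 7 of 8 above 1. The gene below 1 was a cathepsin, Ctso, at 1383 in FLS and 1570 in DS livers, a ratio of 0.881. The median log2 ratio of this list went from 0.30 to 0.19 at a signal limit of 200. With no limit it was 0.14, and 8 of 12 genes were above 1. Ctss, a cysteine protease of antigen-presenting cells, read 2108 in FLS and 1303 in DS livers, a ratio of 1.62. Cystatin C (Cst3), an inhibitor of cysteine cathepsins, had a ratio of 1.44, cystatin B (Cstb) of 1.30, and the carboxypeptidase gene Scpep1 of 1.39. Among hydrolases and activators, where the median ratio was 1.03 over 13 genes, Ids had 1.29, the cholesterol exporters Npc2 and Npc1 had 1.25 each, and Dnase2a, the acid DNase, had 334 in FLS and 612 in DS livers, a ratio of 0.545. Lysosomal membrane proteins and transporters had a median ratio of 1.18 over 7 genes, with Mfsd12 at 1.57, Cln8 at 1.40, Laptm4b at 1.28 and Clcn7 at 1.18. Mfsd12, Cln8 and Clcn7 exceeded 500 in the FLS pool alone, and the median log2 ratio of this list went from 0.24 to 0.047 without them and to 0.062 with the median over probe sets. Other pump subunits had a median of 1.08 over 9 genes, with Atp6ap2 and Atp6v1b2 at 1.23, Atp6v1d at 1.14 and Atp6v1g1 at 0.682, the last between 0.611 and 0.682 on its 3 probe sets. Atp6v1b2 exceeded 500 in the FLS pool alone, at 540 against 438, and without it the median log2 ratio of this list went from 0.11 to 0.056.

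Genes of initiation and nucleation had no settled direction as a list. Of 9 measured genes, 6 had ratios below 1, and the median log2 ratio was -0.098, whereas it was 0.11 after division by Actb, 0.079 above a signal of 200 and 0.087 with no limit, where 11 of 18 genes were above 1. Wdr45b, a relative of WIPI1, gave 901 for FLS and 1708 for DS livers, a ratio of 0.527. Ulk2, the second ULK kinase, had 453 and 820, a ratio of 0.552, and its 3 measured probe sets lay between 0.503 and 0.569. Vmp1 had 0.816, while Atg101, a subunit of the ULK complex, had 1.37, at 602 in FLS and 439 in DS livers. Ulk2 exceeded 500 in the DS pool alone and Atg101 in the FLS pool alone. Without both genes the median log2 ratio of this list stayed at -0.098. Of 8 other conjugation genes, only Atg4a, at 0.714, and Gabarapl2 were measured, and with no signal limit 5 of the 8 were above 1.

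Among 12 measured genes of Ragulator, mTORC1 and AMPK, which sense nutrients at the lysosome, the median ratio was 1.04. Mtor itself had a ratio of 1.45, Prkaa2, a catalytic subunit of AMPK, of 0.683, Rraga of 0.730 and Rheb of 0.840. Of 9 genes of lysosomal sorting and transcription, Zkscan3 had 1.39, Flcn 1.24, Igf2r, which carries tagged enzymes to lysosomes, 1.15 and Fnip2 0.830. Fusion genes had a median of 1.13 over 5, with Stx17 at 1.26, Vps41 at 1.21, Rab7 at 1.13 and Vps11 at 0.811. The second probe set of Rab7 had a ratio of 0.990. Stx17 exceeded 500 in the FLS pool alone, at 502 against 400, and without it the median log2 ratio went from 0.18 to 0.14.

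Several cathepsins, Ctss and Ctsc among them, are also abundant in macrophages, many of whose markers had lower signals in FLS livers. Of 20 Kupffer cell and macrophage markers on the array, 10 were measured, of which 8 had ratios below 1, with a median of 0.747, a log2 ratio of -0.42. Adgre1, Clec4f, Vsig4 and C1qc exceeded 500 in the DS pool alone, and without them the median log2 ratio was -0.094. With no signal limit, 15 of the 20 had ratios below 1 and 5 above, the highest being Gpnmb at 2.80. Vsig4 had signals of 408 in FLS against 736 in DS livers, a ratio of 0.554, Cd5l had 1484 and 2260, a ratio of 0.657, and Mpeg1 had 1143 and 1649, a ratio of 0.693. Lyz2, the lysozyme of macrophages and neutrophils, was the highest of the 10, at 970 and 677, a ratio of 1.43. Summed over all 20 markers, the signal was 10348 in FLS and 12226 in DS livers, 0.846-fold, and none was at 0. The part of macrophage RNA in the cathepsin signals was not tested. None of 9 neutrophil, 9 T and NK cell or 6 bile duct markers exceeded 500 in either pool. Stellate cell markers had a median of 1.38 over 6 measured genes, with Col3a1 at 2.78, Col1a2 at 2.00 and Reln at 1.38. Col1a2 exceeded 500 in the FLS pool alone, at 633 against 316. With no signal limit, 8 of 13 stellate cell markers were above 1 and 5 below. Those below were the measured Acta2, at 0.919, and the dimmer Lrat at 0.880, Gfap at 0.882, Ngfr at 0.885 and Des at 0.987. Sinusoidal endothelial markers had a median of 1.03 over 4, with Stab2 at 1.34.

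**Figure D4:**
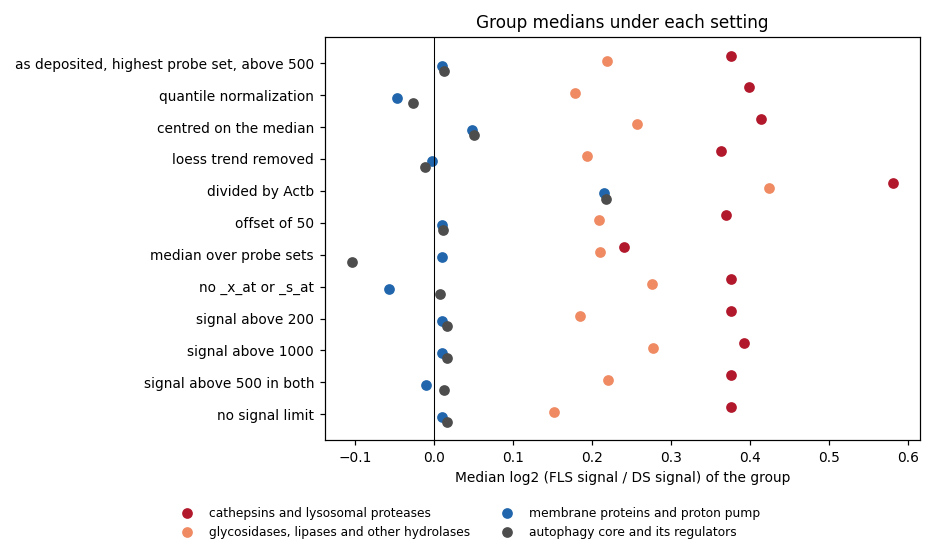
Median log2 FLS/DS ratio of the measured genes of each group (points, 1 color per group) under the settings of the report (top row) and 11 alternatives. The cathepsins keep the highest median in each row, from 0.24 to 0.58, and the medians of the membrane and autophagy groups lie on either side of 0 depending on the setting.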

How the data were processed

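Liver RNA of 1 FLS pool and 1 DS pool was measured on 1 array each. The authors deposited linear signal intensities, 1 per probe set and array, from the model-based index MBEI (PM-only), which uses the perfect-match probes alone, after normalization by a method not given in the sources used here. Submitters named in their processing notes the package affy with no version. From 45101 probe sets, the 34958 with 1 annotated gene symbol were kept, and symbols were updated through Entrez numbers for 34754. A gene was represented by its brightest probe set on average over both pools, and counted as measured above 500 in either. FLS/DS ratios and their log2 were taken with no offset. No test was possible, so calls are fold limits of 2 and 1.5.

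The 44 members, the pathway and marker lists and the fold limits were chosen with earlier results of these data known. All members and the Ctse probe sets are named, with up to 4 measured genes of each further pathway list and up to 3 of each marker list by largest absolute log2 ratio. Genes named beyond this rule (Alb, Lyz2, Adgre1, Clec4f, C1qc, Klf1, Slc4a1, Epb42, Ctso, Acta2, Lrat, Des, Gfap, Ngfr, the hemoglobin genes and those in the closing observations) were picked after their values were seen. Promoters came from RefSeq (GRCm38.p6) and motifs were searched on both strands. The alternatives were quantile normalization, centring on the median, loess (fraction 0.4), division by Actb, an offset of 50, the median over probe sets, omission of names ending in _x_at or _s_at, signal limits of 200, 1000, none or 500 in both pools, and a fold limit of 1.5. A ratio was taken to move beyond the pooled SD of 0.22, a median beyond that SD divided by the square root of its number of genes, and a count beyond 1.5 times. The calculations were tested on simulated data. The number of arrays limits the precision. Calculations ran in Python 3.11.15 (pandas 2.3.3, numpy 2.4.6), loess in statsmodels 0.14.6, and plots were drawn with matplotlib 3.10.9.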

Additional observations from a re-analysis of the deposited data

How the results depend on the processing

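No paired analysis was possible because each strain had 1 array. Of the comparisons over 12 alternatives, 121 values of the main results stayed within their limits and 21 moved. Some of these values could not move, since a fold limit of 1.5 changes no median. Division by Actb shifts every log2 ratio by 0.21 and centring by 0.038, both below the limit of 0.22 for a single gene. These tallies, and those for single genes below, therefore overstate how stable the values are. Division by Actb moved the median log2 ratio of all members from 0.15 to 0.36, of the cathepsins from 0.38 to 0.58, of the hydrolases from 0.22 to 0.42, of the membrane and pump group from 0.0091 to 0.21, of the autophagy group from 0.012 to 0.22 and of the further pathway genes from 0.11 to 0.31, and it left 2 members past 2-fold in the FLS direction and 0 in the DS direction. Giving each gene the median of its probe sets, dim ones included, moved the medians to 0.051 for all members, 0.24 for the cathepsins, -0.10 for the autophagy group and 0.042 for the further pathway genes, with 0 members past 2-fold in the FLS direction and 1 past 2-fold in all. Under that setting the ratio of Ctse turned from 2.47 to 0.782, and those of Ctsc and Ctsa, whose other probe sets are dim, became 0.947 and 1.30. Centring on the median gave 0.19 for all members and 0.15 for the further pathway genes, whose median was 0.077 under quantile normalization and 0.061 without _x_at and _s_at probe sets. A signal limit of 1000 gave 0.22 for all members. At a fold limit of 1.5, 4 members were higher and 5 were past the limit in all. Over all genes, the numbers past 2-fold in the FLS and DS directions were 54 and 49 with a signal above 500 in both pools and 180 and 129 with no signal limit, in place of 116 and 90. Among single genes and pathway lists, 340 values stayed within their limits, 42 moved and 1, the ratio of Ctse above, turned its direction. With 1 array per strain, no difference of any size can be separated from the variation between arrays or mice.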

Other observations

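Some lysosome and autophagy genes differed at signals at or below 500, where readings lie closer to the array medians of 120 and 125. Gpnmb, a glycoprotein of macrophage lysosomes, gave 350 for FLS and 125 for DS livers, a ratio of 2.80, against the direction of most other macrophage markers. The macrophage lysosomal marker Cd68 had 236 and 187, a ratio of 1.26. Atg16l2, a relative of the scaffold that places LC3 on membranes, had 204 and 113, a ratio of 1.80, and Rubcn, an inhibitor of autophagosome maturation, had 179 and 125, a ratio of 1.43. Ctsf, a further cysteine cathepsin, had 326 and 468, a ratio of 0.697, and Tpcn1, a cation channel of endosomes and lysosomes, had 291 and 412, a ratio of 0.706. These 6 genes were chosen with their values in view.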
